A study of Arabidopsis thaliana with 6 samples.

Results

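The genes described here encode the uptake of nitrate and its reduction to ammonium in Arabidopsis thaliana. They were picked by name and identifier: NRT1.1 (AT1G12110), NRT2.1 (AT1G08090), NIA1 (AT1G77760), NIA2 (AT1G37130) and NIR1 (AT2G15620), 5 of the 44200 genes and de novo loci counted. The study compared Col-0 with the nsra/b double mutant, which carries T-DNA insertions in NSRa and NSRb, a pair of genes for nuclear speckle RNA binding proteins, in the Col-0 background. Each genotype had 3 libraries of polyadenylated RNA from plantlets (whole seedlings), grown in 16 h light and 8 h dark on solid 0.5-strength MS medium, moved at 14 days to fresh mock medium for 24 h without added auxin and collected at 15 days, as the sample records give it. All 6 libraries were mock treated, and the auxin arm of the experiment was not analysed here.

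Nitrate enters the root through plasma membrane transporters. NRT1.1 works at both high and low nitrate and is also a nitrate sensor, whereas NRT2.1 belongs to the high-affinity system, works together with its partner NRT3.1 and is known to be repressed by ammonium. In the cytosol nitrate reductase, encoded by NIA1 and NIA2, reduces nitrate to nitrite with the help of a molybdenum cofactor. In the plastid nitrite reductase, encoded by NIR1, reduces nitrite to ammonium with electrons from ferredoxin and a sirohaem group. Glutamine synthetase and glutamate synthase then carry the ammonium into amino acids. Transcription of the genes for both reductases and for the transporters is known to respond to nitrate, light and the circadian clock. MS medium supplies both nitrate and ammonium.

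The counts of a gene can be read only as far as its sequence separates it from its relatives. The coding sequences of NIA1 and NIA2 were 74.1% identical where aligned, and their longest shared run was 20 nt. Those of NRT2.1 and its neighbour NRT2.2 were 89.4% identical with a shared run of 170 nt. The first 30 coding bases of each are shown to let a reader see the kind of difference that separates the members of each pair. Capitals mark bases that differ from the paralog, or lie opposite a gap, in the alignment of the whole coding sequences. They come from the RefSeq TAIR10.1 assembly, 5′ to 3′ on the coding strand, at chr1:29239338-29239367 (minus strand) for NIA1, chr1:14158617-14158646 (plus) for NIA2, chr1:2524139-2524168 (plus) for NRT2.1 and chr1:2529049-2529078 (minus) for NRT2.2.
NIA1: atggcgAcctcCgtCgataaCcgccaTtat
NIA2: atggcgGcctcTgtAgataaTcgccaAtaC
NRT2.1: atgggTGAttctactgGtgagccGggGagC
NRT2.2: atgggttctactgAtgagccCggAagTtcc
Of these 30 bases, 25 of NIA1 and 24 of NIA2 were identical in the paralog, as were 23 of NRT2.1 and 26 of NRT2.2. Opposite a gap lay 3 bases of NRT2.1 and 1 base of NIA2. Over the whole exon sequence, no stretch of 100 nt of NRT1.1, NIA1, NIA2 or NIR1 occurred in another annotated gene, whereas 71 of the 2012 such stretches of NRT2.1 (3.53%) also occurred in NRT2.2. Reads could thus be placed on either NRT2 gene, and the separate counts of NRT2.1 and NRT2.2 are uncertain to that extent.

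In the same assembly NRT1.1 lies on the plus strand of chr1:4105223-4109601 with 5 exons, 2202 nt of exon and 1773 nt of coding sequence. NRT2.1 lies on the plus strand of chr1:2524023-2526322 with 3 exons (2111 nt, 1593 nt coding), 847 nt from NRT2.2, which runs towards it from the minus strand. NIA1 is a gene of 4 exons on the minus strand of chr1:29235721-29239484 (3155 nt, 2754 nt coding). NIA2, with 3 exons on the plus strand of chr1:14158452-14161938 (3205 nt), has a coding sequence of the same 2754 nt. NIR1, the only member on another chromosome, has 4 exons on the plus strand of chr2:6810395-6812941 (2193 nt, 1761 nt coding). No other annotated gene overlaps any of the 5. The de novo locus XLOC_008080, listed as antisense to NIA2, was near 0, with 0, 1 and 1 counts for Col-0 against 0 in each nsra/b library.

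Counts per library came to between 25936176 and 32578330, and TMM normalization factors ranged from 0.992 to 1.01. Libraries of 1 genotype were more alike than libraries of different genotypes. The chi-square per degree of freedom was 1.36 to 1.9 within a genotype against 5.01 to 5.84 between genotypes. No library was a copy of another. Counting error alone would give a value near 1, so the spread within a genotype was little above it. This check cannot tell separate cultures from repeated libraries of 1 culture. The common biological coefficient of variation (BCV) was 0.0203. The methods of the study call the libraries biological replicates, but the labels do not say that they came from separate cultures, and p-values here measure the spread between these libraries. No source used here gives the identifiers of the mutated genes, so the genotype labels could not be checked on them, and nsra/b stands below for the libraries so labelled. Counts of AT1G76940 and AT1G21320, both annotated as nucleic acid binding proteins, were higher in those libraries, with 4987, 5898 and 5577 against 396, 519 and 441, and 81, 78 and 88 against 17, 25 and 25. Both root and shoot markers were present, with all 10 root and all 10 shoot genes detected. Summed root markers were 394.3 to 408.8 CPM (counts scaled to a library of 1000000 by TMM) in Col-0 and 422.3 to 448.9 in nsra/b, which do not overlap, and summed shoot markers overlapped at 36546 to 38327 and 36584 to 37901 CPM. In bulk seedlings a different number of cells of a type and a different amount of RNA per cell cannot be told apart.

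The order of the 5 genes was the same in every library (plot of TPM by library). On the TPM scale (counts divided by exon length and scaled to a sum of 1000000 over the nuclear genes), NIA2 stood at 935.4, 934.6 and 933.3 in Col-0 against 909.3, 907.7 and 893.0. This placed it 103 among the 37512 genes with a length. NIA1 followed at rank 423, with 280.8, 280.2 and 285.5 TPM in Col-0 against 264.9, 258.3 and 265.4. NIR1 was next at rank 841, with 156.2, 153.5 and 160.2 TPM against 174.0, 169.6 and 182.7. The reductase genes were thus all abundant, with nitrate reductase above nitrite reductase. NRT1.1 reached 47.5, 45.5 and 48.7 TPM in Col-0 against 45.0, 45.2 and 45.2, at rank 3685. NRT2.1 lay far below at 0.194, 0.300 and 0.0748 TPM against 0.175, 0.244 and 0.253, at rank 22811. From the top of this order down, each gene exceeded the next by a ratio of mean TPM of 3.37, 1.64, 3.59 and 223.4, and no neighbours overlapped in any library. NIA1 and NIA2 together took between 0.232% and 0.244% of all counts in a library.

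**Figure D1:**
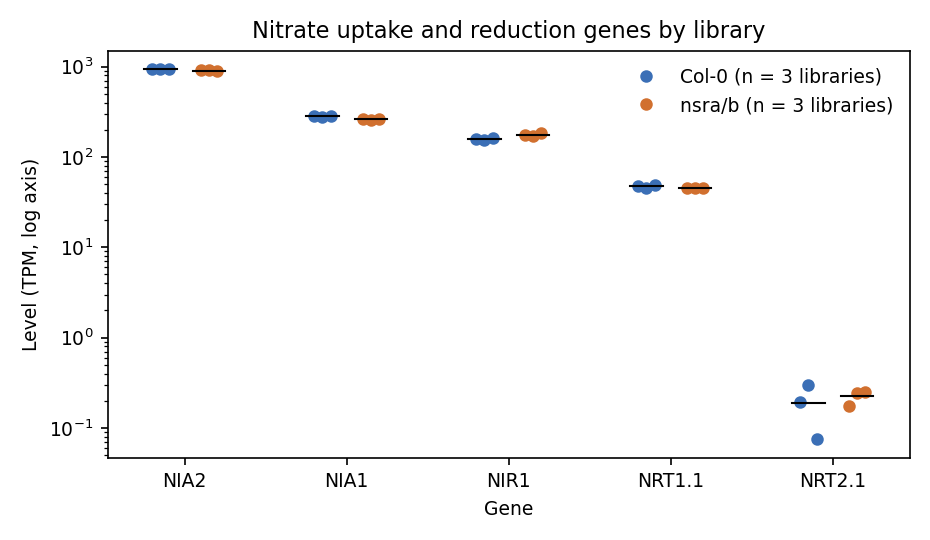
Level of the 5 genes in each library, in TPM on a log axis; points are libraries (3 of Col-0 in blue, 3 of nsra/b in orange) and bars are means. NIA2 lies between 893.0 and 935.4 TPM, NRT1.1 between 45.0 and 48.7 TPM, and NRT2.1 between 0.0748 and 0.300 TPM.

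The comparison of nsra/b with Col-0 asks whether the levels of these genes depend on the NSRs in seedlings that received no auxin. NIR1 rose by 11.4% and NIA1 fell by 7.37% in nsra/b, while the differences of NIA2 and NRT1.1 did not pass the test and NRT2.1 had too few counts to be tested. A call here is an adjusted p under 0.01 in edgeR's quasi-likelihood test, with Benjamini and Hochberg's adjustment taken over all 21606 tested features. Of the 4 genes tested, 1 was called higher and 1 lower, where 8.86% of all tested features were called (5.28% higher and 3.58% lower). Among tested features with over 32 CPM on average, as these 4 have, 968 of 6363 were called (15.2%). The values of the genotypes did not overlap for any of the 4, which was so for 30.0% of all tested features.

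Among the uptake genes, the counts of NRT1.1 were 1787, 2058 and 2036 for Col-0 against 1614, 1930 and 1866 for nsra/b. After scaling, these were 66.4, 63.4 and 67.1 CPM against 62.1, 62.8 and 62.2. All 3 nsra/b values were lower than the lowest Col-0 value, which came from Col-0 replicate 2 and lay only just above them. Mean CPM was 65.6 ± 1.95 for Col-0 and 62.4 ± 0.407 for nsra/b, with SD and n = 3 for this and every mean below. The log2 fold change of NRT1.1 was -0.07 (SE 0.0324), with an adjusted p of 0.139 from edgeR and 0.386 from DESeq2. The 95% interval of the difference ran from -10.4% to 0.843%, which includes 0. It uses the larger standard error of DESeq2 (0.0433) and, like every such interval below, is not adjusted for the number of features tested. The unadjusted p of NRT1.1 from edgeR was 0.0318. CIPK23, the kinase that phosphorylates NRT1.1, stood at 82.7 ± 1.89 CPM for Col-0 and 83.1 ± 1.57 for nsra/b, with a log2 fold change of 0.01 (adjusted p = 0.917, edgeR).

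NRT2.1 was close to the limit of detection in these seedlings. Its counts were 7, 13 and 3 for Col-0 against 6, 10 and 10 for nsra/b. Exact 95% Clopper-Pearson intervals, which cover counting error only, ran from 0.0205 CPM at the lowest bound to 0.682 CPM at the highest, and the genotypes overlapped. Over each genotype 23 and 26 counts were obtained, a ratio of 1.18 after division by the library totals, with an interval of 0.645 to 2.16, and the exact two-sided permutation test over the 6 libraries gave p = 0.8. Fitted together with all unfiltered features, NRT2.1 had an unadjusted p of 0.624 by edgeR. A difference of NRT2.1 within that interval was not detectable at this depth. The log2 difference ran from -0.14 without Col-0 replicate 3 to 0.74 without Col-0 replicate 2.

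NRT2.2 to NRT2.6, of the same high-affinity family, also had at most 12 counts in any library. NRT2.2 and NRT2.4 had 0 counts in all 6 libraries, for which the floor of 3 counts is 0.0921 to 0.116 CPM of the unscaled library and the upper bound of the exact 95% interval 0.113 to 0.142 CPM. Counts of NRT2.3 were 1, 3 and 0 against 1, 1 and 4 in nsra/b, and those of NRT2.5 were 1, 1 and 0 against 0, 2 and 3. NRT2.6 had 3, 9 and 8 against 12, 10 and 6, so that none of these separated the genotypes. Of the list of 8 NRT2 and NRT3 genes only NRT2.7, which encodes the vacuolar transporter best known from seeds, and NRT3.1, the partner protein of NRT2.1, passed the filter. NRT2.7 was at 11.7 ± 0.847 CPM for Col-0 and 13.3 ± 0.686 for nsra/b (log2 fold change 0.19, adjusted p = 0.0454, edgeR). NRT3.1 was at 23.7 ± 1.01 and 26.0 ± 0.653 CPM (log2 fold change 0.13, adjusted p = 0.0618, edgeR). The partner was thus measured at a level far above that of the transporter. NRT3.1 was not called, and NRT2.1 was not tested. NRT3.2 was not analysed here.

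The nitrate reductase genes were both lower in every nsra/b library than in any Col-0 library, and the difference passed the test for NIA1. For NIA1, Col-0 gave 15125, 18151 and 17111 counts and nsra/b 13607, 15808 and 15704. Scaled to the library these were 561.9, 559.4 and 564.0 CPM against 523.2, 514.5 and 523.4. The Col-0 libraries stood at 99.6% to 100.4% of their mean, and the nsra/b libraries stood at 91.6% to 93.2% of it. NIA1 fell from 561.8 ± 2.3 to 520.4 ± 5.06 CPM, a log2 fold change of -0.11 (SE 0.0221, adjusted p = 0.000473, edgeR), or -7.37% with a 95% interval from -10.1% to -4.54%. Among all tested features, 37.2% had a larger absolute log2 fold change than NIA1. NIA1 lies 331.3 kb from AT1G76940, whose counts were the higher ones in nsra/b given above, on the same chromosome, and the part of this region in the change of NIA1 was not tested.

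NIA2, which encodes the isoform with most of the nitrate reductase activity of Arabidopsis, had the most counts, with 51182, 61491 and 56823 in Col-0 against 47442, 56423 and 53681. These were 1902, 1895 and 1873 CPM against 1824, 1837 and 1789. The highest nsra/b value (1837 CPM) lay below the lowest Col-0 value (1873 CPM). The means were 1890 ± 15.0 and 1817 ± 24.5 CPM, and the log2 fold change of -0.06 (SE 0.0215) had an adjusted p of 0.0710 from edgeR, 0.0407 from DESeq2 and 0.0152 from limma voom, none of which is under 0.01. The difference was -3.87%, with a 95% interval from -6.64% to -1.03%. NIA2 was thus not called, although its interval, which is not adjusted for the number of features tested, does not reach 0. Of the tested features, 60.9% had a larger absolute log2 fold change.

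NIR1, which encodes the enzyme of the next step, moved in the opposite direction. Its counts were 5849, 6911 and 6676 for Col-0 against 6212, 7214 and 7513 for nsra/b. Scaled, they came to 217.3, 213.0 and 220.0 against 238.8, 234.8 and 250.4. The lowest nsra/b value lay above the highest Col-0 value, and nsra/b replicate 3 was the highest of all. NIR1 rose from 216.8 ± 3.56 to 241.4 ± 8.11 CPM, a log2 fold change of 0.16 (SE 0.0262, adjusted p = 4.86e-05, edgeR; 2.73e-05, DESeq2). The increase was 11.4%, with a 95% interval from 6.83% to 16.1%, and 25.7% of tested features had a larger absolute log2 fold change.

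**Figure D2:**
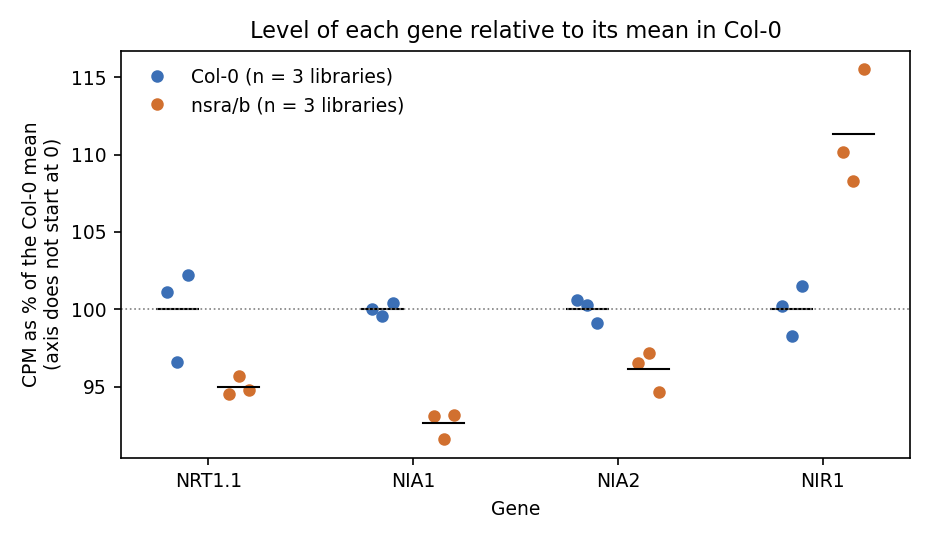
Level of the 4 tested genes in each library as a percentage of the mean CPM of Col-0; points are libraries, bars are means, and the axis does not start at 0. The nsra/b libraries lie at 91.6% to 93.2% for NIA1, 94.7% to 97.2% for NIA2, 94.5% to 95.7% for NRT1.1 and 108.3% to 115.5% for NIR1.

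The calls of NIA1 and NIR1 rest on the small spread between these libraries. With a BCV fixed at 0.1 and a likelihood ratio test, an alternative added after the values were seen, the log2 fold changes were -0.11 and 0.15 and neither gene was called (adjusted p = 1.0 for both). The summed root markers given above also separated the genotypes in the direction of NIR1, with 10.6, 10.5 and 11.2 CPM of root markers per 1000 CPM of shoot markers for Col-0 against 11.1, 11.9 and 12.3 for nsra/b, which overlap. Of the 10 root markers 3 rose (PRP3 by 0.62, CASP1 by 0.31 and IRT1 by 0.30 on the log2 scale) and 0 fell. Shoot markers were called as well, in both directions: CA1, GLDP1 and SHM1 rose by 0.25, 0.23 and 0.14, and LHCB1.1 fell by 0.17 on the log2 scale. The shares called were 30% of root and 40% of shoot markers, against 8.86% of all tested features and 15.2% of those over 32 CPM. The part of root and shoot markers in the changes of NIR1 and NIA1 was not tested.

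Ratios within a library compare successive steps and paralogs without the scaling between libraries. Between the paralogs, TPM of NIA2 over TPM of NIA1 was 3.33, 3.33 and 3.27 for Col-0 against 3.43, 3.51 and 3.36 for nsra/b. NIA2 thus made up 76.6% to 76.9% of nitrate reductase TPM in Col-0 and 77.1% to 77.8% in nsra/b. Between the steps, NIR1 over the sum of NIA1 and NIA2 was 0.128, 0.126 and 0.131 for Col-0 against 0.148, 0.145 and 0.158 for nsra/b. Every nsra/b library had more nitrite reductase transcript per nitrate reductase transcript than any Col-0 library, with means of 0.129 ± 0.00257 and 0.150 ± 0.00642, or 16.8% more. Exact two-sided permutation tests gave p = 0.1 for both ratios, the smallest that 3 libraries against 3 allow, and 0.15 after Benjamini-Hochberg adjustment over the 3 ratios compared. For NRT2.1 over NRT1.1 the genotypes overlapped (exact permutation p = 0.7).

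**Figure D3:**
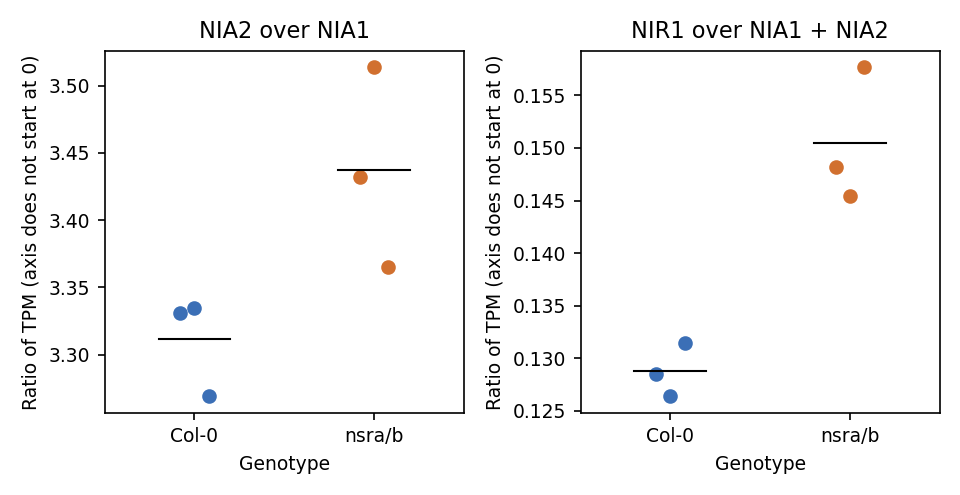
Ratios of TPM in each library, NIA2 over NIA1 on the left and NIR1 over the sum of NIA1 and NIA2 on the right; points are libraries, bars are means, and the axes do not start at 0. The left ratio spans 3.27 to 3.33 in Col-0 and 3.36 to 3.51 in nsra/b, and the right one 0.126 to 0.131 and 0.145 to 0.158.

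The genes around the pathway were described in 7 lists of 94 genes, of which 84 were tested, 10 were called higher and 8 lower (21.4% of those tested, against 8.86% of all tested features and 15.2% of those over 32 CPM). The median log2 fold change of all tested features was -3.79e-05. The plot of log2 fold changes by list shows every tested gene.

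**Figure D4:**
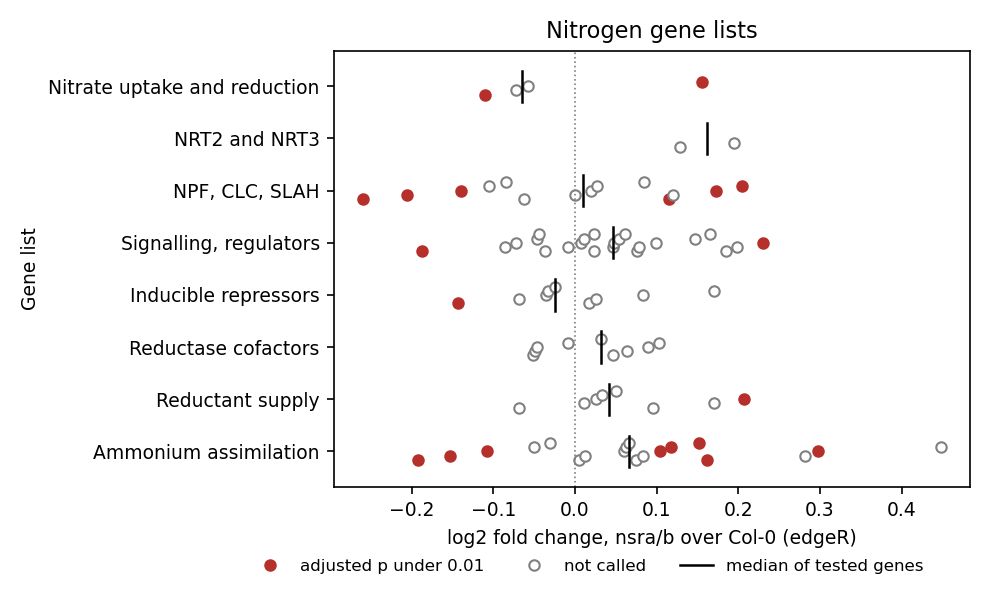
Log2 fold change of nsra/b over Col-0 (edgeR) for each tested gene of the nitrate uptake and reduction genes and of the 7 lists; filled points have an adjusted p under 0.01, open points do not, and bars are medians. Called genes lie on both sides of 0 for the NPF, CLC and SLAH list (3 higher, 3 lower) and for ammonium assimilation (5 higher, 3 lower), and no gene of the cofactor list is called.

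Of 15 other nitrate transport and storage genes (NPF, CLC and SLAH proteins), 14 were tested, 3 rose and 3 fell, with a median log2 fold change of 0.01. The share called was 42.9%, against 8.86% of all tested features and 15.2% of those over 32 CPM. DESeq2 called 4 of the 14, 1 higher and 3 lower, where it called 5.18% of all features. The largest decrease was in NRT1.5, which loads nitrate into the root xylem and fell from 281.5 ± 6.69 to 235.1 ± 3.91 CPM (log2 fold change -0.26, SE 0.0250, adjusted p = 1.88e-09, edgeR). NRT1.11, which moves nitrate from xylem to phloem in petioles, fell by 0.21 on the log2 scale (adjusted p = 7.47e-05, edgeR), and NRT1.2, a low-affinity uptake transporter also known to import abscisic acid, fell by 0.14 (adjusted p = 0.00107). NPF6.4, of the same subfamily as NRT1.1 (NPF6.3), rose from 112.4 ± 1.84 to 129.6 ± 2.22 CPM (log2 fold change 0.20, adjusted p = 1.19e-06). NRT1.7, which loads nitrate into the phloem of source leaves, rose by 0.17 on the log2 scale (adjusted p = 0.00344), and AT2G26690 (NPF6.2) by 0.11 (adjusted p = 0.00710). These last increases were not called by DESeq2 (adjusted p = 0.0404 for NRT1.7 and 0.0405 for AT2G26690). Without Col-0 replicate 2 only 3 of the list were called, 1 higher and 2 lower.

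The regulators of the pathway were called about as often as all features. Of 24 genes for nitrate signalling and transcriptional regulation, 23 were tested, 1 rose and 1 fell (8.70%, against 8.86% of all tested features), with a median log2 fold change of 0.05. NLP7, the transcription factor central to the nitrate response, stood at 91.0 ± 1.24 CPM for Col-0 and 88.1 ± 1.67 for nsra/b, and the values overlapped (log2 fold change -0.05, adjusted p = 0.326, edgeR). The gene that rose was HY5, a bZIP factor of light signalling, from 14.5 ± 0.520 to 17.0 ± 0.764 CPM (log2 fold change 0.23, adjusted p = 0.00495 by edgeR but 0.0577 by DESeq2). The gene that fell was AT3G60320, from 101.8 ± 2.11 to 89.4 ± 0.164 CPM (log2 fold change -0.19, adjusted p = 1.08e-05, edgeR). Without Col-0 replicate 1, Col-0 replicate 2 or nsra/b replicate 2, in turn, 1 of the list was called, which in each case was lower. Among 9 nitrate-inducible repressors, all tested, only LBD37 was called (11.1%, against 8.86% of all tested features). LBD37, a LOB-domain repressor of nitrogen-responsive genes, fell from 145.0 ± 2.96 to 131.2 ± 3.86 CPM (log2 fold change -0.14, adjusted p = 0.000314, edgeR). The median log2 fold change of the 9 genes was -0.02.

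The 9 genes for the molybdenum cofactor, molybdate transport and sirohaem of both reductases were all tested, and none was called by edgeR or DESeq2. Of all tested features, edgeR called 8.86% and DESeq2 5.18%. None had an unadjusted p under 0.05 by edgeR. Their log2 fold changes ran from -0.05 to 0.10, with a median of 0.03. Among 8 genes that supply reductant to nitrite reduction, FD3, a ferredoxin of non-photosynthetic plastids, rose from 34.1 ± 0.598 to 39.5 ± 0.682 CPM (log2 fold change 0.21, adjusted p = 0.000188, edgeR). The other 7 were not called, and the median of the list was 0.04. The share called was 12.5%, against 8.86% of all tested features.

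Downstream of NIR1, ammonium uptake and assimilation had called genes in both directions. Of 21 genes 19 were tested, 5 rose and 3 fell, with a median log2 fold change of 0.07. The share called was 42.1%, against 8.86% of all tested features and 15.2% of those over 32 CPM. DESeq2 called 6, of which 3 were higher and 3 lower, where it called 5.18% of all features. The genes that rose encode an ammonium transporter, cytosolic glutamine synthetases and ferredoxin-dependent glutamate synthases. AMT1;2, an ammonium transporter of the root, rose from 36.9 ± 1.22 to 45.4 ± 2.02 CPM (log2 fold change 0.30, SE 0.0397, adjusted p = 1.10e-06, edgeR). GLN1;2 rose from 436.0 ± 3.42 to 487.6 ± 6.64 CPM (adjusted p = 2.64e-06), and GLU1, the main glutamate synthase of leaves, from 1574 ± 16.6 to 1749 ± 38.9 CPM, or 11.1% (adjusted p = 5.16e-06). The remaining increases were in GLN1;1 and GLU2, at 0.12 and 0.10 on the log2 scale, and were not called by DESeq2 (adjusted p = 0.0575 and 0.0514). GLN2, the plastid glutamine synthetase that takes up ammonium from nitrite reduction, was at 1644 ± 24.8 CPM for Col-0 and 1716 ± 24.1 for nsra/b and was not called (log2 fold change 0.06, adjusted p = 0.0511, edgeR). The genes that fell encode asparagine synthetases and a glutamate dehydrogenase. ASN1 fell from 294.5 ± 3.0 to 257.6 ± 3.82 CPM (log2 fold change -0.19, adjusted p = 2.71e-07), ASN2 by 0.11 on the log2 scale (adjusted p = 0.000917) and GDH1 by 0.15 (adjusted p = 0.000676). Without Col-0 replicate 2 the list had 5 calls, 3 higher and 2 lower.

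Because the reductase genes are known to follow the clock, 8 clock genes were read beside them. ELF4, TOC1 and PRR9 rose, by 0.48, 0.14 and 0.16 on the log2 scale, and 0 fell. The share called was 37.5%, against 8.86% of all tested features and 15.2% of those over 32 CPM. DESeq2 called 2 of the 8, and for PRR9 it gave an adjusted p of 0.0301. For ELF4 the means were 17.8 ± 0.369 CPM for Col-0 against 24.8 ± 1.62 (adjusted p = 2.65e-08, edgeR). Without Col-0 replicate 2 only 1 of the 8 was called. Among those not called by edgeR, CCA1 and GI were higher in every nsra/b library than in any Col-0 library (log2 fold changes 0.09 and 0.10, adjusted p = 0.0396 and 0.0159). LHY was lower in every nsra/b library (-0.21, adjusted p = 0.129), PRR7 had 382.2 ± 5.59 CPM for Col-0 and 361.7 ± 18.4 for nsra/b (-0.08, adjusted p = 0.0437) with overlap, and PRR5 overlapped as well. The part of the clock genes in the changes of NIA1 and NIR1 was not tested.

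The features whose log2 CPM was most like that of each gene over the 6 libraries were taken from 19698 tested features with at least 1 CPM on average, by Pearson's r as a description with no test. The libraries of these genes fall into their genotypes, so that r is high for any feature that separates the genotypes in the same direction. NRT1.1 was nearest to AAE5, an acyl-activating enzyme (r = 0.995), IBR10 (0.991) and AT1G24300, a GYF domain protein (0.990), and had 60 features with r over 0.95. NIA1 had 337 such features and was nearest to FLS2, the receptor kinase for bacterial flagellin, SRF4, a receptor-like kinase, and MLO7, each with r = 0.997. These 3 fell more than NIA1, by 0.43, 0.78 and 1.24 on the log2 scale. NIA2 had 215 and was nearest to pde191 (0.997), LHB1B2, a light-harvesting protein of photosystem II (0.995), and MOR1, a microtubule-associated protein (0.994). NIR1 had 245 and was nearest to AT3G27210, an uncharacterized protein (0.999), ADC2, an arginine decarboxylase of polyamine synthesis (0.995), and ZF2, a zinc finger transcription factor (0.995). No gene of the pathway lists was among these 12.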

How the data were processed

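RNA-seq of mock-treated Col-0 and nsra/b seedlings (3 libraries each) was analysed from the raw counts per gene that the authors deposited. According to the methods of the study, reads were quality filtered with fastqc, aligned with tophat, with 1 alignment kept per read, and counted strand specifically in Union mode with summarizeOverlaps on Araport11 genes and loci assembled de novo with cufflinks. The submitters' processing notes name TAIR10, whereas versions of these tools are not given in the sources used here. A read that matches near-identical genes is thus placed on 1 of them. The labels and the methods differ in seedling age and read length, the methods giving a younger age and longer, paired reads. Age entered no calculation. The stretches of 100 nt compared between genes have the read length of the labels, and longer ones were not examined. No batch is given.

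Genotypes and replicate numbers were taken from the sample labels. The table held 44200 features, of which 21606 passed edgeR's filterByExpr (minimum count 10, minimum total count 15). TMM scaling and quasi-likelihood fits on genotype alone were run in edgeR 4.0.16 (R 4.3.3), p-values were adjusted after Benjamini and Hochberg over all tested features, and genes under 0.01 were called. The methods of the study state DESeq2, run here as an alternative. For mock samples the study reported far fewer genes that differed between mutant and wild type than either tool called here. The reason for this was not tested. Standard errors were taken from the F statistic (size of the log2 fold change divided by the root of F), and 95% intervals use the larger of this and the standard error of DESeq2. Ratios were compared by exact permutation tests. TPM used the exon union of RefSeq TAIR10.1 over nuclear annotated genes, which also gave gene models and sequences. Chi-square tests compared libraries. The tests were also run on counts simulated with the spread fitted to these libraries, which cannot check that spread.

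The alternatives were DESeq2 1.42.0, limma voom 3.58.1, scaling by library size only or by DESeq2 size factors, no filter, over 1 CPM in at least 3 libraries, an adjusted p under 0.05, the replicate number as a block, ratios of counts not divided by length, each library left out in turn and, added after seeing the data, a BCV fixed at 0.1. The genes and lists were chosen with earlier results of these data known. The text names the 5 genes, the called genes of each pathway list (at most the 6 with the smallest adjusted p, GLN1;1 and GLU2 being named in addition after their values were seen), NRT2.2, NRT3.1, CIPK23, NLP7, GLN2 and GLU1, and the 3 features nearest to each gene. The clock, marker and other NRT2 genes were named after their values were seen.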

Additional observations from a re-analysis of the deposited data

How the results depend on the processing

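NIA1 and NIR1 kept their direction and their call, and NIA2 and NRT1.1 stayed uncalled, in every alternative set beforehand, and with a BCV fixed at 0.1 NIA1 (log2 fold change -0.11) and NIR1 (0.15) were no longer called (adjusted p = 1.0). That setting called 203 features and 0 genes of the transporter, signalling, repressor, reductant, ammonium and clock lists. DESeq2 called 1120 features and 1 signalling gene. An adjusted p under 0.05 gave 3218 features, 1 gene of the NRT2/NRT3 list, 2 of the reductant list and 6 clock genes. With library size only, 2 reductant genes were called. The causes of these differences were not tested.

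When each library was left out in turn, 1290 to 1859 features were called. The called genes numbered 3 to 6 in the NPF, CLC and SLAH list, 1 to 2 in signalling, 5 to 7 in ammonium and 1 to 4 in the clock list. Log2 fold changes ran from -0.11 to -0.10 for NIA1 (adjusted p 0.000415 to 0.00537), 0.13 to 0.18 for NIR1 (1.07e-05 to 0.00168), -0.06 to -0.05 for NIA2 (0.0762 to 0.234) and -0.10 to -0.06 for NRT1.1. NRT2.1 turned from 0.74 to -0.14, and its ratio to NRT1.1 from 0.97 to -0.08, both lowest without Col-0 replicate 3, at counts too low to bear a direction. Same-numbered libraries of the genotypes had deviations correlated at -0.0113, 0.0565 and 0.0731, and different-numbered ones at 0.0477 or lower. Whether the replicate numbers pair the samples was not tested. With the replicate block 2093 features were called, and NIA1 (adjusted p = 0.000139) and NIR1 (5.05e-06) stayed called and NIA2 (0.0380) and NRT1.1 (0.127) uncalled. Depth limits NRT2.1 and the other low NRT2 genes.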
